A study of Arabidopsis thaliana with 6 samples.

Results

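The expansins are a superfamily of plant cell wall proteins, and their transcripts were followed here in Arabidopsis seedlings treated with lasalocid sodium (LS), a polyether ionophore that carries cations across membranes. The members were 35 listed loci of the α-expansin (EXPA), β-expansin (EXPB), expansin-like A (EXLA) and expansin-like B (EXLB) families, and a spot was taken as a member when it was not a control spot and its systematic name was one of these loci. All 35 were found among the 29030 loci named on the array, with 25 EXPA, 6 EXPB, 3 EXLA and 1 EXLB loci. The treated group consisted of wild-type Col-0 seedlings, raised in the dark until 3 days old and then kept for 24 h in the dark in liquid medium with 1 μM LS. The control group had the same genotype, age and darkness and went into the same medium with 0 μM LS. Whether a solvent was added to the control medium is not given in the sources used here. RNA came from whole seedlings, and each group had 3 one-colour Agilent arrays.

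Expansins loosen the wall without cutting its polysaccharides, by loosening the contacts between cellulose and the other wall polymers, and they work best at acid pH. Proton pumps in the plasma membrane acidify the wall, so that expansins are a part of what is called acid growth. α-Expansins act in elongating hypocotyls and roots, in root hairs, in emerging lateral roots and in germinating seeds, whereas the expansin-like proteins share the domain structure but are not known to loosen walls.

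A level is given below as log2 of the processed spot signal relative to the 75th percentile of its array, so that a level of 0 means a signal equal to that percentile. A difference is the mean LS level minus the mean control level. Levels of different genes come from different probes and were not compared with each other. A gene was called when limma's Benjamini-Hochberg adjusted p over 32349 probes was under 0.05 and the fold change was at least 1.5, and a gene with several probes was read from its brightest tested probe. On the 6 arrays, 72.6% to 77.0% of the spots were well above background. The median difference between replicate arrays was 0.24 to 0.37 on the log2 scale in LS and 0.16 to 0.23 in the control, and the number of arrays limits the precision. One slide carried LS array 1 and all 3 control arrays, and the other slide carried LS arrays 2 and 3. The labels do not say whether the replicates came from separate cultures, so the p-values measure the spread between these samples, which may be technical. Among the marker genes of dark-grown seedlings, PORA, a protochlorophyllide oxidoreductase made in the dark, had 4.07, 3.71 and 3.94 on the LS arrays, against 4.40, 3.79 and 4.37 on the control arrays, and the groups overlapped. PHYA, the photoreceptor phytochrome A, which accumulates in the dark, had 4.08, 4.45 and 4.41 on the LS arrays, all below 4.78, 4.77 and 4.79 on the control arrays, and was not called (-0.47, adjusted p = 0.130). Of 4 pollen genes, 3 were not well above background on any array, but AGP6 was on all 6 arrays. Its groups overlapped, with a difference of 0.16 (adjusted p = 0.773). Each of the 4 guard cell markers had a signal well above background on all 6 arrays. Of these markers 0 were called, where 3.18% of all tested loci were called higher and 2.19% lower. At such shares, a list of 4 markers cannot show whether guard cell transcripts changed.

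Expansin transcripts moved in both directions after LS. Of the 35 loci, 25 were tested, since they gave a signal clear of the background on all 3 arrays of one group or of both, and 5 of these were called higher, namely EXPA2, EXPA12, EXPA14, EXPA17 and EXLA1, where 3.18% of all 21819 tested loci were called higher. Another 3 were called lower, namely EXPA3, EXPA5 and EXPA8, where 2.19% of all loci were called lower. The other 17 were not called, and their differences ran from -0.56 to 1.73. The median difference was 0.46 over the 25 expansins and -0.03 over all tested loci, and the median size of the difference without its sign was 0.70 and 0.28 in these sets. All 3 LS arrays lay above all 3 control arrays for 12 expansins and below them for 5, where 17.6% of all tested loci had LS arrays all above and 17.9% all below, and for 8 expansins the groups overlapped. In whole seedlings, a change in the number of cells that express a gene and a change in RNA per cell cannot be told apart.

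By family, EXPA had 4 of 19 tested loci called higher and 3 called lower, with a median difference of 0.54. EXLA had 1 of 3 called higher and 0 lower, with a median of -0.06. Neither of the 2 tested EXPB loci nor the single EXLB locus was called, with medians of -0.25 and 0.75. At an unadjusted p under 0.05, 16 of the 25 expansins passed, with 1 of the 2 EXPB loci and the EXLB locus among them, where 26% of all tested loci did.

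**Figure D1:**
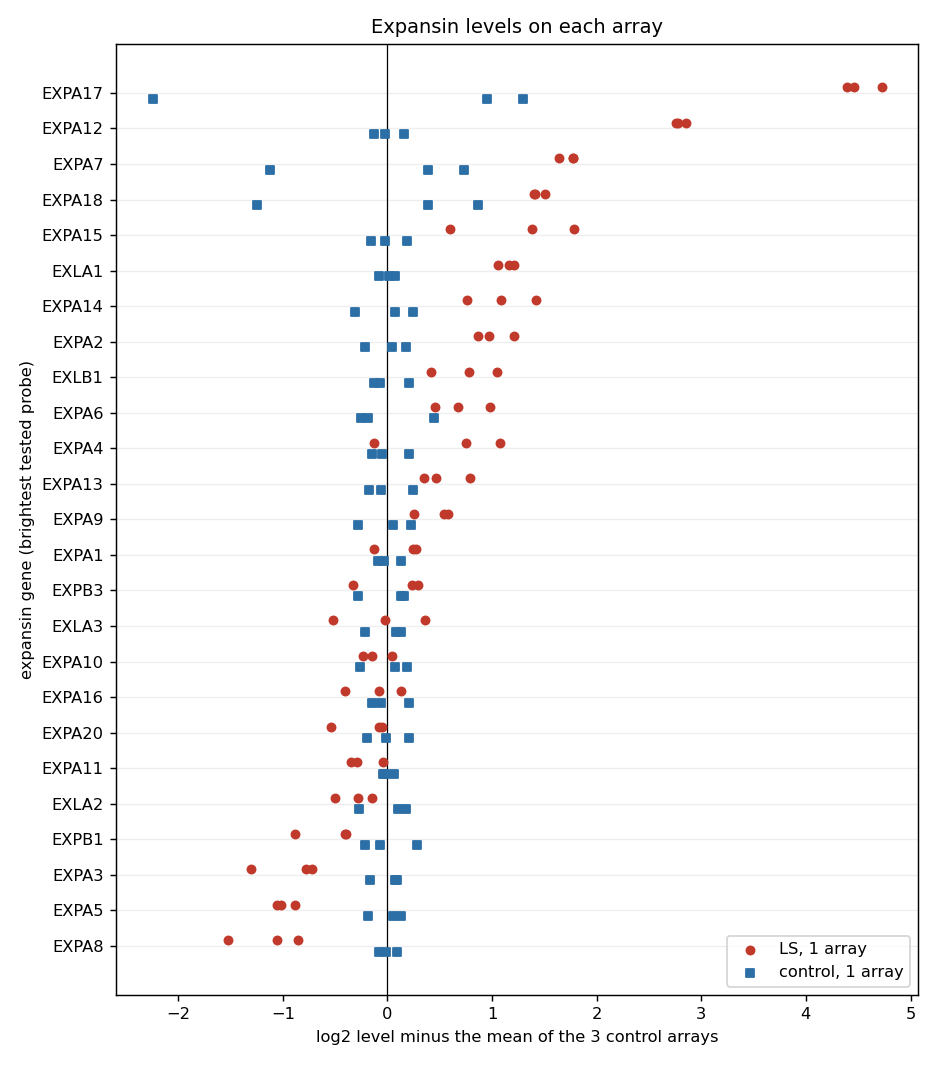
Level of the brightest tested probe of each of the 25 tested expansin genes on each array, with red circles for LS and blue squares for control. The horizontal axis gives the log2 level minus the mean of the 3 control arrays of that gene. The LS arrays of EXPA12 lie close together and far above its controls, whereas the control arrays of EXPA17, EXPA7 and EXPA18 are spread out, with 1 array far to the left.

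EXPA12 (AT3G15370), an α-expansin, rose in LS. Its level was 0.86, 0.78 and 0.76 on LS arrays 1 to 3, against -1.84, -2.02 and -2.13 on control arrays 1 to 3. The groups were far apart and the arrays of each group were close together. The mean was 0.80 ± 0.05 in LS and -1.99 ± 0.15 in the control (SD, n = 3 each), a difference of 2.80 (SE 0.15, adjusted p = 0.0034), or 6.94-fold. EXPA12 was called without any 1 of the 6 arrays (adjusted p between 0.00968 and 0.0217). Its difference within one slide, fitted with the slide as a block, was 2.85 (adjusted p = 0.0201).

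With the slide as a block, the contrast rests on the slide that held both groups, so it equals LS array 1 minus the mean of the 3 control arrays, and its error assumes that LS array 1 varies like the other arrays. This value is named the within-slide difference below. EXPA12 was the 1 expansin still called in that fit. Over all loci, 22 were then called higher and 47 lower, against 694 and 478 without the block.

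EXPA14 (AT5G56320) and EXPA17 (AT4G01630) are known as α-expansins of lateral root emergence, downstream of the transcription factor LBD18. The level of EXPA17 was -0.26, 0.01 and -0.33 on the LS arrays, against -3.76, -3.42 and -6.96 on the control arrays. The LS arrays were alike and all above the controls, and control array 3 was well below the other 2 controls. The mean was -0.19 ± 0.18 in LS and -4.72 ± 1.95 in the control (SD, n = 3 each), a difference of 4.52 (SE 0.84, adjusted p = 0.0332), or 23.0-fold. The difference was 3.27 and called with normexp background correction, and with the methods' t-test EXPA17 was not called, before or after adjustment. Without control array 3 the difference was 3.40 and EXPA17 was called (adjusted p = 0.0155). Without any other single array EXPA17 was not called, with adjusted p between 0.0567 and 0.0841. Its within-slide difference was 4.46 (adjusted p = 0.199). EXPA14 had -0.80, -1.14 and -1.46 on the LS arrays, against -1.98, -2.15 and -2.54 on the control arrays. The groups did not overlap, and in both groups array 3 was the lowest. The difference was 1.09 (SE 0.23, adjusted p = 0.0435), or 2.13-fold. EXPA14 was called without LS array 3 but not without any other single array, with adjusted p between 0.0661 and 0.138, nor with median centring (1.02, adjusted p = 0.052). Its within-slide difference was 1.42 (adjusted p = 0.126).

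LBD18 itself (AT2G45420) was called lower. Its level was -0.59, -0.42 and -1.09 on the LS arrays, against 0.31, 0.20 and 0.61 on the control arrays, and the groups did not overlap. The difference was -1.08 (SE 0.22, adjusted p = 0.0410), and both probes of LBD18 were called. LBD18 was called without LS array 2 but lost its call without any other single array (adjusted p between 0.0566 and 0.126) and with spike-in scaling (-0.49, adjusted p = 0.59). Its within-slide difference was -0.97 (adjusted p = 0.244). LBD16 and LBD29, related transcription factors of lateral root formation, had differences of 0.04 and 0.57 and were not called.

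EXPA2 (AT5G05290), known as an expansin of germinating seeds, had 2.44, 2.79 and 2.55 on the LS arrays, against 1.75, 1.62 and 1.36 on the control arrays. All LS arrays were above all control arrays. The difference was 1.02 (SE 0.18, adjusted p = 0.0304), or 2.02-fold. Without any 1 of the 6 arrays EXPA2 was no longer called (adjusted p between 0.0508 and 0.119), nor with spike-in scaling (1.61, adjusted p = 0.0579). Its within-slide difference was 0.87 (adjusted p = 0.197).

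EXLA1 (AT3G45970), an expansin-like gene, had 0.65, 0.51 and 0.61 on the LS arrays, against -0.63, -0.48 and -0.54 on the control arrays. The arrays of each group lay within a narrow range, and the ranges were far apart. The mean was 0.59 ± 0.07 in LS and -0.55 ± 0.08 in the control (SD, n = 3 each), a difference of 1.14 (SE 0.15, adjusted p = 0.0198), or 2.21-fold. Its other probe had a difference of 0.93 (SE 0.20, adjusted p = 0.0457) and was called as well. EXLA1 was called without any 1 LS array and lost its call without control array 1, 2 or 3 (adjusted p between 0.0561 and 0.0864). Its within-slide difference was 1.21 (adjusted p = 0.101).

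The 2 other EXLA genes were not called from their brightest probes, EXLA2 with a difference of -0.31 (adjusted p = 0.336) and EXLA3 (AT3G45960) with -0.06 (adjusted p = 0.896). EXLA3 lies beside EXLA1 on chromosome 3, with 1 gene between them in the TAIR10.1 annotation. The brightest probe of EXLA3 had -3.45, -3.07 and -3.96 on the LS arrays, against -3.65, -3.30 and -3.35 on the control arrays, and the groups overlapped. Its second, dimmer probe had -5.14, -5.64 and -5.19 on the LS arrays, against -6.28, -6.41 and -6.45 on the control arrays, without overlap. That probe differed by 1.06 (SE 0.18, adjusted p = 0.0302) and was called. Its call was lost without any 1 array other than LS array 2 (adjusted p between 0.0543 and 0.124), within the slide (1.24, adjusted p = 0.126) and with normexp background correction, where the difference was 0.20. Counting a locus as called when any of its probes was called, 3.43% of all tested loci were higher and 2.71% lower, and EXLA3 was then the sixth expansin called higher.

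**Figure D2:**
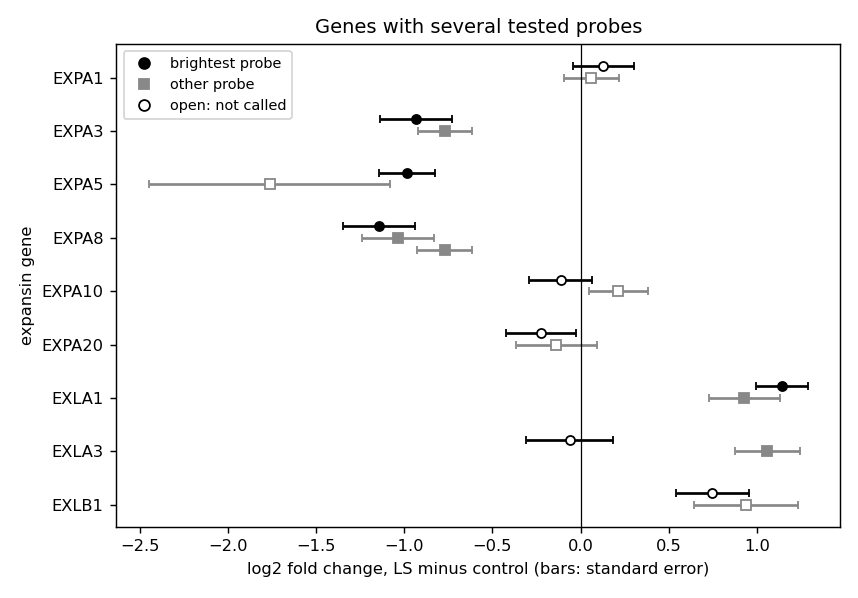
Difference between LS and control (log2, horizontal axis) of every tested probe of the 9 expansin genes with several tested probes, with black circles for the brightest probe, grey squares for the others and bars for the standard error. Filled symbols were called. The probes of EXPA3, EXPA8 and EXLA1 were all called and on one side of 0, whereas EXPA5 and EXLA3 had 1 called probe each.

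The genes called lower were all α-expansins. EXPA8 (AT2G40610) had 3.36, 3.56 and 2.89 on the LS arrays, against 4.34, 4.51 and 4.40 on the control arrays. The control arrays were close together and every LS array was below them, LS array 3 the most. The mean was 3.27 ± 0.35 in LS and 4.42 ± 0.09 in the control (SD, n = 3 each), a difference of -1.15 (SE 0.20, adjusted p = 0.0316). The 2 other probes of EXPA8 differed by -1.03 (adjusted p = 0.0371) and -0.77 (adjusted p = 0.0395), and both were called. EXPA8 kept its call without LS array 2 or 3. It lost the call without LS array 1 or control array 1, 2 or 3 (adjusted p between 0.0671 and 0.128) and within the slide (-1.05, adjusted p = 0.195).

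EXPA5 (AT3G29030), an expansin of brassinosteroid-dependent growth, had -0.997, -1.17 and -1.13 on the LS arrays, against 0.02, -0.07 and -0.30 on the control arrays. The groups were clearly apart and the LS arrays were nearly equal. The difference was -0.98 (SE 0.16, adjusted p = 0.0268). A dimmer probe of EXPA5 was well above background on 2 of 3 LS arrays and had -6.60, -9.15 and -6.75 there, against -5.10, -5.66 and -6.46 on the control arrays. All its LS arrays were below its control arrays, LS array 2 by far the most, and the difference was -1.76 (SE 0.68, adjusted p = 0.162), and was not called. EXPA5 kept its call without LS array 2 or 3 and lost it without LS array 1 or control array 1, 2 or 3 (adjusted p between 0.0544 and 0.115), and within the slide (-0.88, adjusted p = 0.168).

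EXPA3 (AT2G37640) had 2.84, 2.78 and 2.25 on the LS arrays, against 3.63, 3.39 and 3.65 on the control arrays. The groups did not overlap, and LS array 3 was again the lowest. The difference was -0.94 (SE 0.20, adjusted p = 0.0464), and the other probe of EXPA3 had a difference of -0.77 (adjusted p = 0.0382) and was called as well. EXPA3 lost its call without any 1 of the 6 arrays (adjusted p between 0.0574 and 0.141), with median centring (-1.002, adjusted p = 0.0509) and within the slide (-0.72, adjusted p = 0.291). The 3 calls were also lost with another scaling. When the arrays were scaled on their spike-in control spots, the median difference of all loci was 0.56 in place of -0.03. The spike-in signal relative to the 75th percentile was -0.18 on LS array 3, against 0.85 to 1.51 on the other 5 arrays, and the shift of 0.59 that this scaling gives was 0.21 without LS array 3. The differences were then -0.56 for EXPA8, -0.39 for EXPA5 and -0.34 for EXPA3, still below 0 but not called.

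**Figure D3:**
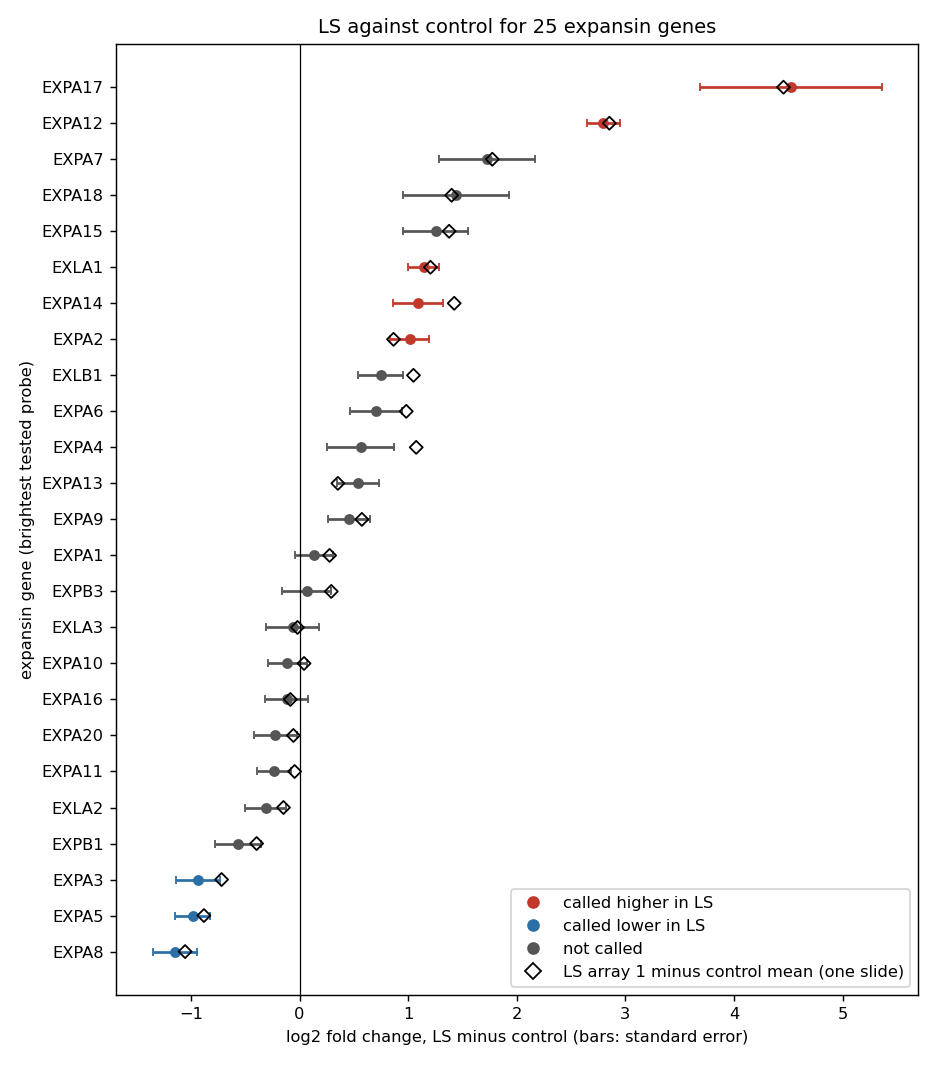
Difference between LS and control (log2, horizontal axis) of the 25 tested expansin genes, with filled circles for the means over 3 arrays each, bars for the standard error and colours for the calls. Open diamonds give LS array 1 minus the mean of the control arrays, which share its slide. For all 8 called genes the diamonds lie on the side of 0 of the circles. This was fixed in advance, since LS array 1 is part of the circle and these groups did not overlap.

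Root hair expansins showed large differences that did not pass the test. EXPA7 (AT1G12560) and EXPA18 (AT1G62980) are known as the α-expansins of root hair cells. EXPA7 had -0.42, -0.42 and -0.56 on the LS arrays, against -1.46, -1.81 and -3.31 on the control arrays, a difference of 1.73 (SE 0.44, adjusted p = 0.0653). EXPA18 had -1.20, -1.09 and -1.19 on the LS arrays, against -1.73, -2.21 and -3.85 on the control arrays, a difference of 1.44 (SE 0.49, adjusted p = 0.123). In both genes the LS arrays were nearly equal and above all controls, and control array 3 was far below the other 2. Without control array 3 the differences were 1.17 for EXPA7 (adjusted p = 0.0619) and 0.81 for EXPA18 (adjusted p = 0.128). The within-slide differences were 1.77 (adjusted p = 0.285) and 1.40 (adjusted p = 0.422). Both genes were called higher with spike-in scaling, and EXPA7 also with normexp background correction. Spike-in scaling raised the median difference of all loci to 0.56 and called 722 of them higher and 56 lower.

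Control array 3 was the lowest of the 6 arrays for 9 of 11 root hair markers (81.8%) and for 8 of the 25 tested expansins (32%). It was the lowest for 21.4% of the 21657 tested loci used for this count. Of the 11 root hair markers, 0 were called in either direction, where 3.18% of all tested loci were called higher and 2.19% lower. The median difference of the markers was 0.14. In MRH6, RHS12 and RHS18 all LS arrays were above the control arrays, and in IRE too, which was well above background on 3 LS arrays but on only 2 of 3 control arrays. These were 4 of the 11 markers, where 17.6% of all tested loci had LS arrays all above. IRE passed the filter only through the LS group, where it was higher, so the filter favoured its place in this count. In each of the 4, control array 3 was the lowest. For 0 markers were the LS arrays all below, where 17.9% of all tested loci had them so. The levels of the 11 markers summed to 3.77, 4.08 and 3.45 times the 75th percentile on the LS arrays, against 4.01, 3.70 and 2.48 times on the control arrays. The summed level was thus lower on control array 3 than on the other 5 arrays, and without it the median difference of the list was -0.17. RHS18, a root hair peroxidase, had the largest positive difference of the list, with -0.81, -1.14 and -1.46 on the LS arrays, against -1.63, -2.41 and -3.22 on the control arrays, a difference of 1.28 (SE 0.39, adjusted p = 0.0968). LRX1, a leucine-rich wall protein of root hairs, had the largest negative one, -0.31 (SE 0.40, adjusted p = 0.673), and -1.26 within the slide (adjusted p = 0.158). None of the 11 was dim on every array. What part the low root hair marker level of control array 3 has in the values of EXPA7, EXPA17 and EXPA18 was not tested.

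**Figure D4:**
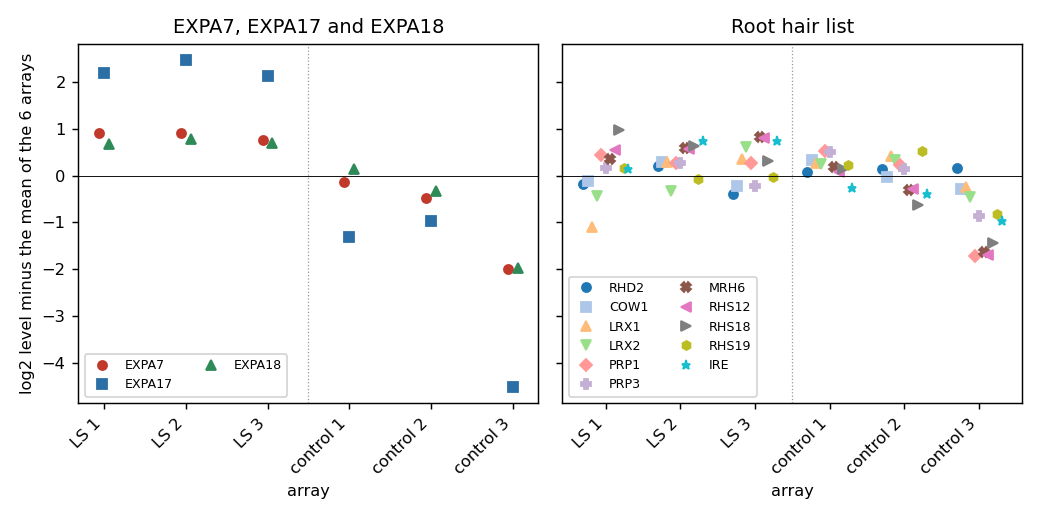
Levels of EXPA7, EXPA17 and EXPA18 (left) and of the 11 root hair markers (right) on each array, as log2 minus the mean of the 6 arrays of each gene. All 3 expansins are lowest on control array 3, as are 9 of the 11 markers, and on control arrays 1 and 2 the 3 expansins lie below their LS levels.

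Another 3 genes had LS arrays all above the control arrays, with a difference of at least 0.58 and no call. EXPA15 (AT2G03090) had -2.11, -2.89 and -1.71 on the LS arrays, against -3.30, -3.52 and -3.65 on the control arrays. The LS arrays were spread out and LS array 2 came near the controls, and the difference was 1.25 (SE 0.30, adjusted p = 0.0564). Without LS array 2 it was called (adjusted p = 0.0328), and with normexp background correction the difference was 0.70. Within the slide it was 1.38 (adjusted p = 0.233).

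EXPA6 (AT2G28950) had 2.58, 2.05 and 2.27 on the LS arrays, against 1.34, 1.41 and 2.04 on the control arrays. Control array 3 was almost level with LS array 2, and the difference was 0.70 (SE 0.24, adjusted p = 0.126). EXLB1 (AT4G17030), the 1 expansin-like B gene, had -1.64, -2.27 and -1.91 on the LS arrays, against -2.82, -2.49 and -2.76 on the control arrays. LS array 2 lay just above the controls, and the difference was 0.75 (SE 0.21, adjusted p = 0.0794). The within-slide differences were 0.98 for EXPA6 (adjusted p = 0.241) and 1.05 for EXLB1 (adjusted p = 0.16). The second probe of EXLB1 had a difference of 0.94 (adjusted p = 0.105).

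The remaining 12 tested loci had differences from -0.56 to 0.56 and adjusted p between 0.136 and 0.896, and for 8 of them the groups overlapped. EXPA9 and EXPA13 had LS arrays all above the control arrays, with differences of 0.46 and 0.54. EXPA11 and EXPB1 had LS arrays all below, with -0.23 and -0.56, and for EXPA11 the nearest LS and control arrays had 3.88 and 3.89. EXPA1, known as an expansin of guard cells, differed by 0.13, and its second probe by 0.06. The groups also overlapped for EXPA4 (0.56), EXPA10 (-0.11), EXPA16 (-0.12), EXPA20 (-0.22) and EXPB3 (0.07). The 2 probes of EXPA10, an expansin of leaf growth, lay on either side of 0, with -0.11 and 0.21.

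The other 10 loci were not tested. Of these, EXPA21 to EXPA26 follow each other on chromosome 5 with 0 genes between neighbours in the TAIR10.1 annotation. The rest were EXPB2, EXPB4, EXPB5 and EXPB6, of which EXPB2 and EXPB6 are next to each other on chromosome 1. Of the 10 loci, 8 were not well above background on any array. EXPA26 was well above it on control array 2 alone (-5.72) and EXPB5 on control array 1 alone (-6.76), and no fold is given for these 10. Whether probes of neighbouring family members also bind each other's transcripts was not tested.

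Besides the expansins, the proton pumps and growth regulators that set wall pH were read from a list of 17 acid growth genes, of which 15 were tested. On it, 0 were called higher and 1 lower, where 3.18% of all tested loci were called higher and 2.19% lower. On the list 6 differences were above 0, and the median was -0.22, against -0.03 over all tested loci. The list mixes pumps with regulators, so its median does not give a direction of acid growth. The gene called lower was SAUR19, a small auxin-induced protein that keeps the pumps active. It had 1.12, 1.40 and 0.75 on the LS arrays, against 2.07, 2.73 and 2.85 on the control arrays. The groups did not overlap, and the difference was -1.45 (SE 0.26, adjusted p = 0.0316). SAUR19 was called without LS array 2 or control array 1 and lost its call without any other single array (adjusted p between 0.0588 and 0.126) and with spike-in scaling (-0.86, adjusted p = 0.395). Its within-slide difference was -1.42 (adjusted p = 0.192).

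The related SAUR63 had -0.64, -0.41 and -1.90 on the LS arrays, against 0.27, 0.65 and 1.08 on the control arrays. All LS arrays were below the controls, but LS array 3 stood apart, and the difference of -1.65 (SE 0.40, adjusted p = 0.0591), the lowest of the list, was not called. Among the pumps, AHA7 had the highest difference. Its level was -1.91, -1.76 and -1.62 on the LS arrays, against -2.37, -2.45 and -3.12 on the control arrays, a difference of 0.88 (SE 0.23, adjusted p = 0.0685). AHA1 and AHA2, the main pumps of the seedling, had differences of 0.53 (adjusted p = 0.29) and 0.29 (adjusted p = 0.40) and were not called. AHA4 and AHA11 were also above 0, at 0.44 and 0.30. AHA3, AHA5, AHA8 and AHA9 were below 0, at -0.07, -0.58, -0.41 and -0.76. The LS arrays were all above the control arrays for AHA1, AHA4 and AHA7 and all below them for AHA5. Over all tested loci, 17.6% had LS arrays all above and 17.9% all below. None of the tested pumps was called, and their differences were mixed in direction. PP2C.D1, FER, RALF1 and RALF23, the regulators left on the list, had differences of -0.22, 0.005, -0.47 and -0.51. They were not called, and for RALF23 all LS arrays were below the control arrays.

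Of the 12 transcription factors listed as upstream of expansin genes or of the organs that use them, all were tested, 0 were called higher and 1, LBD18, was called lower. Over all tested loci, 3.18% were called higher and 2.19% lower. There were 5 differences above 0, and the median was -0.03 both on the list and over all tested loci. RSL4, which drives root hair growth, had a difference of 1.29 (SE 0.40, adjusted p = 0.0982). Its level was -2.09, -1.62 and -2.28 on the LS arrays, against -2.43, -3.40 and -4.04 on the control arrays. Control array 3 was the lowest for it too. RHD6 and RSL2, also root hair factors on the list, had differences of -0.02 and -0.17 and were not called. RSL1, which acts in root hair initiation, had -5.51, -5.20 and -6.10 on the LS arrays, against -7.25, -7.10 and -9.42 on the control arrays. It was well above background on all 3 LS arrays and on 1 of 3 control arrays. RSL1 was thus tested only through the LS group, where it was higher. Its difference of 2.32 (SE 0.60, adjusted p = 0.0666), the highest of the list, was not called. The difference was 0.26 with normexp background correction and 2.42 within the slide. BZR1 and BES1, factors of brassinosteroid signalling, had differences of -0.03 and 0.29, and PIF4, a factor of hypocotyl elongation, -0.40, and none of these was called.

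**Figure D5:**
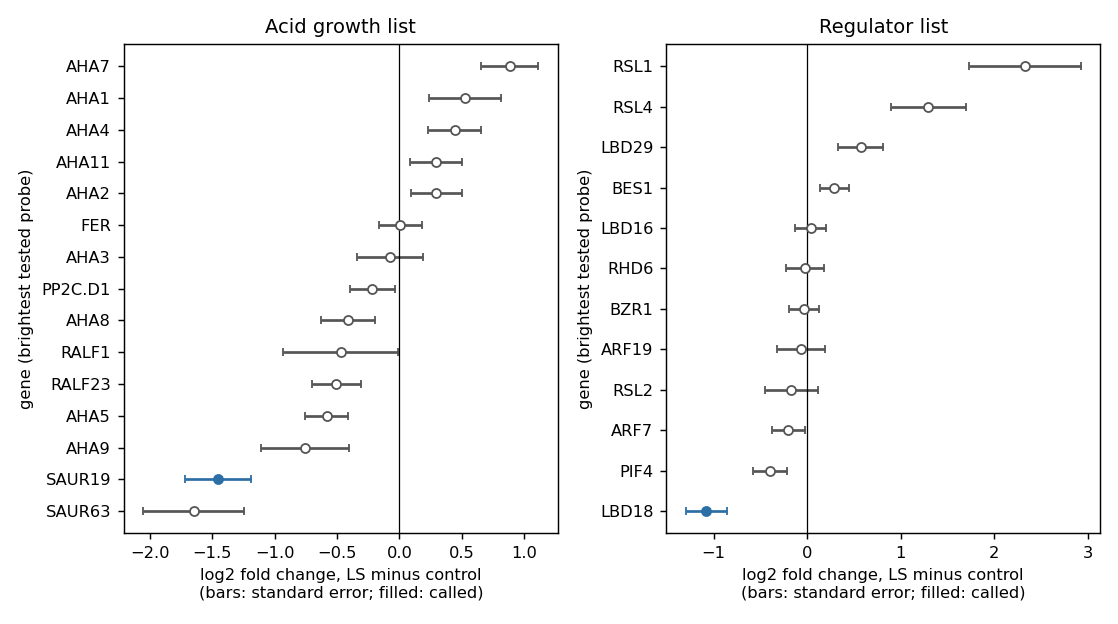
Difference between LS and control (log2, horizontal axis) for the 15 tested acid growth genes (left) and the 12 transcription factors (right), with bars for the standard error. Filled symbols were called, which were SAUR19 at -1.45 and LBD18 at -1.08, both lower in LS.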

How the data were processed

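RNA of 3 LS-treated and 3 control seedling samples was hybridised to one-colour Agilent arrays. The authors scanned them with Agilent Feature Extraction 10.7.3 (named in the submitters' processing notes) and deposited its processed signal per spot, a background-subtracted intensity, with marks for background and outlier spots. They also deposited a table of each spot's ratio to its array's 75th percentile, used as an alternative. From 43803 non-control spots, log2 signals minus the array's 75th percentile were computed, marked outlier spots were set missing and repeated probes averaged. Probes with a signal well above background on all 3 arrays of either group (32349 of 43603) were tested in R 4.3.3 with limma 3.58.1. The limma step alone was run on simulated independent arrays with known changes. Scaling, background, filter, outlier marks and slides were not simulated. The array design names an older annotation, so TAIR10.1 was used for names (21605 of 21819 tested loci) and neighbours only.

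Members and lists were chosen with earlier results of these data known. Genes described in full are loci called by any probe, tested loci with a difference of at least 0.58 in size and groups that do not overlap, and, in the other lists, called genes and the largest rise and fall. RSL4, RSL2, RHD6, the LBD relatives, BZR1, BES1 and PIF4 were named after their values were seen. So were PP2C.D1, FER, RALF1, RALF23, the pumps besides AHA7 and the root hair markers that do not overlap. Alternatives covered scaling, background, filter, marks, test, thresholds, blocks, the deposited table, probe choice and each array left out. For the other lists they were chosen after seeing the data.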

Additional observations from a re-analysis of the deposited data

How the results depend on the processing

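With 5 expansins called higher and 3 lower, the counts moved under these settings. Called higher were 10 with limma without adjustment, 2 without a filter on dim probes, 2 with the replicate number as a block, 1 with the slide as a block and 0 with the methods' t-test after Benjamini-Hochberg adjustment, which called 1 of all loci higher and 0 lower. With that t-test at an unadjusted p under 0.05, 5 were higher, with EXLB1 in place of EXPA17, and 3 lower, where 1215 and 984 of all loci were called. With spike-in scaling 7 were higher. Leaving out each array in turn gave 1 to 3 higher. Over all loci it gave 35 to 510 higher, against 694 with all arrays. Called lower were 1 with a fold of at least 2, and 0 with spike-in scaling, no filter, the replicate block, the slide block or the adjusted t-test. With an array left out 0 to 2 were lower, and over all loci 9 to 435, against 478 with all arrays. The median difference of 0.46 was 1.05 with spike-in scaling (0.56 over all loci), 0.15 with normexp correction, 0.10 without a filter, which adds the dim loci, and 0.31 to 0.51 with an array left out. Except for these construction effects, the cause was not tested. LRX1, at -0.31, turned to 0.28 with spike-in scaling and ranged from -0.56 to 0.17 with an array left out, positive without LS array 1. The brightest probe of EXLA3, at -0.06, was 0.53 with spike-in scaling and 0.50 with the mean of its probes, and ranged from -0.27 to 0.17 with an array left out, positive without LS array 3 or control array 2. No other gene run under the alternatives changed its sign.

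Over all loci, 694 higher and 478 lower calls became 722 and 56 with spike-in scaling (92.8% higher, against 59.2%), 170 and 109 with the replicate block, 114 and 67 without a filter, and 1925 and 1967 without adjustment. The lowest counts with an array left out were 35 and 9, without control array 2. Arrays with the same replicate number correlated at 0.03, -0.12 and -0.19 in their deviations from the group means. With so few arrays per group these deviations depend on each other, and some arrays with the same number lay on different slides. Whether the replicate numbers pair the samples therefore cannot be decided from these values.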
